A study of Danio rerio with 12 samples.

Results

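Zebrafish eye arrays were compared by their level of gap43, a gene of growing and regrowing axons, without regard to how the eyes had been treated. The 12 arrays were grouped by the measured signal of the gap43 probe set, so the grouping is set by the readout. Arrays with a gap43 signal above 2880 formed the high group (4 arrays), arrays with a signal below 346 the low group (5 arrays), and the 3 between the limits were left out, so that 9 of 12 arrays were compared. All values below are log2(signal + 16) unless a fold is given. A difference between high and low arrays is therefore a description, with no test.

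The study took whole eyes, with retina, lens, vitreous and the other parts of the globe, from wild-type adult male zebrafish. In the ONX group the left optic nerve was crushed; in the SHAM group the other eye of those fish, the right one, had an operation that spared the nerve, so every control eye comes from an animal with an injured nerve on the other side. Eyes were taken at 4, 12 and 21 days, 5 eyes made up a pool, and the RNA of a pool went onto 1 Affymetrix zebrafish array, with 2 pools for each of the 6 groups. Fish were kept at 28 degrees, and the labels also name eyes of 6 h and 1 day, which were not analysed here. Because whole eyes were used, fewer cells of a type and less RNA per cell cannot be told apart in any value below.

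The optic nerve is made of the axons of retinal ganglion cells. In fish, unlike in mammals, most of them survive a crush and regrow their axons to the brain. The protein made from gap43 sits on the inner face of the growth cone membrane, where it acts on actin, and in zebrafish the gene is switched on again in ganglion cells while the optic nerve regenerates.

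On the 4 high arrays gap43 read 12.09 (ONX day 4 pool 1), 12.22 (ONX day 4 pool 2), 12.68 (SHAM day 12 pool 1) and 12.32 (ONX day 12 pool 2). On the 5 low arrays it read 7.65 and 7.73 (SHAM day 4 pools 1 and 2), 7.85 (SHAM day 12 pool 2), 7.95 (ONX day 12 pool 1) and 7.93 (ONX day 21 pool 1). The arrays left out were all of day 21, at 10.15 (SHAM pool 1), 9.18 (SHAM pool 2) and 9.38 (ONX pool 2). At day 4 the level therefore followed the labels, while at day 12 it did not, since each label had 1 high and 1 low pool. At day 21 it was higher in both SHAM pools than in ONX pool 1. The limits fell in wide gaps: the lowest high array read 12.09 and the highest left out 10.15, and the lowest left out read 9.18 against 7.95 for the highest low array. The table holds 1 probe set for gap43. The high mean lay 4.51 above the low mean (22.7-fold), by 4.47 within day 4 and by 4.60 within day 12, values that the choice of arrays fixes.

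**Figure D1:**
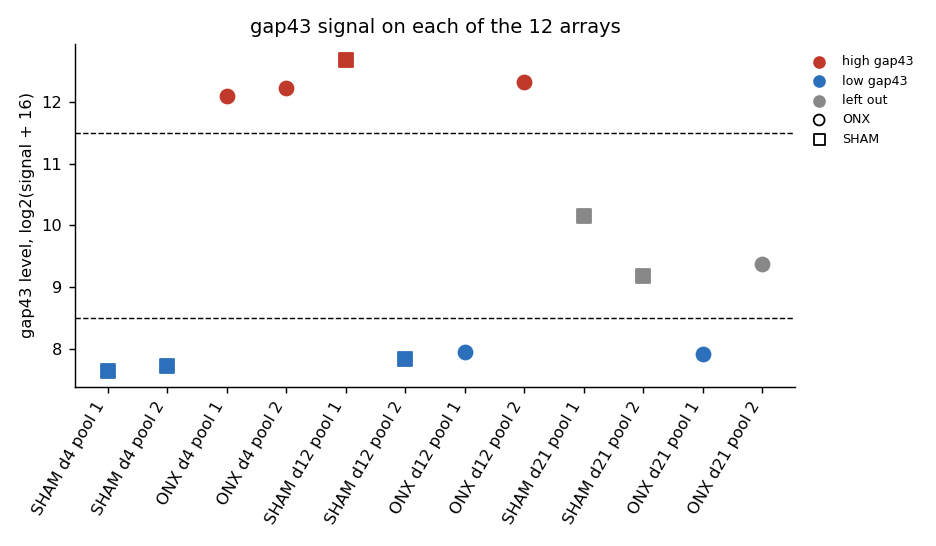
gap43 level, log2(signal + 16), on each of the 12 arrays; circles are ONX and squares SHAM pools, red marks the high, blue the low and grey the left out arrays, and the dashed lines are the limits, at signals of 2880 and 346. High arrays lie at 12.09 or above and low arrays at 7.95 or below, and each day 12 label has 1 of each.

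By the labels, the same gene differed between ONX and SHAM by 4.47 ± 1.50 (SE, 2 pools a group, adjusted p = 0.0636) at day 4 in limma's test, by -0.13 ± 1.50 (adjusted p = 1.00) at day 12 and by -1.01 ± 1.50 (adjusted p = 1.00) at day 21. Each day rests on 2 pools a group, and p-values measure the spread between pools of all 6 groups, so the SE is the same at each day. For gap43 the pools of 1 label lay close together at day 4 (7.65 and 7.73, 12.09 and 12.22). They lay far apart at day 12 (12.68 and 7.85, 7.95 and 12.32). An SE or p given for day 4 is therefore not the spread of the day 4 pools alone. Over 9301 probe sets, 492 rose at day 4 (5.29%) and 1090 fell (11.7%), with 3432 at an unadjusted p under 0.05. This count depends on single arrays and on the scaling: it was 0 without SHAM day 4 pool 1, SHAM day 4 pool 2 or ONX day 4 pool 1, with the poly-A controls as the scale and with the pool number as a replicate block, and 4008 without ONX day 4 pool 2. Each statement below that a gene rose or fell at day 4 rests on the fit of all 12 arrays, and none of those genes passed in the settings that gave 0. At day 12 limma called 0 (0%), with 27 at an unadjusted p under 0.05, and at day 21 it called 0 (0%), with 12. The members and groups were chosen with earlier results of these arrays known, so a day 4 p given below for a gene is not independent of that choice.

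The arrays differed in other ways that move with the grouping. Across the tested probe sets, Spearman correlations lay between 0.954 and 0.970 among low arrays and between 0.752 and 0.942 among high arrays. Within the high group, ONX day 4 pool 1 correlated with the others at 0.752 to 0.810, and the others among themselves at 0.910 to 0.942. Over all probe sets the 4 day 12 arrays did not sort by gap43: SHAM pool 1 (high) correlated at 0.955 with ONX pool 1 (low) and at 0.942 with ONX pool 2, the other high array. The low pair correlated at 0.954, and the other 3 pairs, each of a high and a low array, at 0.936 (SHAM pools), 0.926 (pools 2) and 0.891 (ONX pools). The 9 hybridisation controls, which are added at 1 amount to every array, read -0.38 to -0.12 on the high arrays and 0.01 to 0.18 on the low ones, relative to their mean over arrays, and did not overlap; their part in the results was not tested. A list of 33 oocyte genes had a median of 12.01 on ONX day 4 pool 1 and of 5.16 to 5.91 on the other 11 arrays, so counts are also given without that array. Genes of a whole eye were present on all 12 arrays, with median levels of 11.23 to 12.98 for 14 rod genes and of 12.78 to 14.14 for 9 lens genes.

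Between high and low gap43 arrays, 219 of 9301 probe sets (2.35%) lay at least 2-fold higher with no overlap between the groups, and 122 (1.31%) at least 2-fold lower; such probe sets are referred to as called. With no limit on size, 674 (7.25%) lay higher and 1096 (11.8%) lower without overlap. The called set holds 166 genes on the higher and 73 on the lower side. The gene lists with most members called higher were microglia and macrophages (19 of 28), the matrix (9 of 31) and cell division (9 of 23). The growth cone list followed (7 of 13), gap43 included, whose call the grouping fixes. On the low arrays alone, 17, 9, 3 and 5 of these called genes pass the filter on low values. On the lower side the lists with most were those of rods (5 of 14), inner retinal interneurons (4 of 15) and synapses (3 of 16). Differences were larger on the higher side: among the 15 named genes with the largest difference at both days they ran from 2.14 (lgals9l1) to 4.88 (tmsb), and among the 15 on the lower side from -1.01 (cnksr2b) to -1.46 (gja9a). The higher genes tmsb, prph, acta1a, zgc:172053, marcksa and pvalb2 had low array means of 6.21 to 7.03. They passed the filter on low values only through the other arrays, so their differences are no support for the group. Among the rest the largest was that of tubb5, at 3.88. Without ONX day 4 pool 1, 272 were called higher and 42 lower, with 181 of the 219 and 38 of the 122 kept. Without SHAM day 12 pool 1 the counts were 347 and 416, with 211 and 122 kept. Scaled to the hybridisation controls, 555 were called higher and 6 lower, with the median difference of all probe sets moving from -0.06 to 0.28, and with the 27 poly-A controls as the scale the counts were 228 and 62; the higher side thus kept 219 and 191 of its 219 probe sets, and the lower side 6 and 57 of its 122.

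Per-array values are given in 1 order throughout. High arrays are ONX day 4 pools 1 and 2, SHAM day 12 pool 1 and ONX day 12 pool 2; low arrays are SHAM day 4 pools 1 and 2, SHAM day 12 pool 2, ONX day 12 pool 1 and ONX day 21 pool 1; left out arrays are SHAM day 21 pools 1 and 2 and ONX day 21 pool 2. Errors of a high minus low difference are SDs pooled within the groups of 4 and 5 arrays.

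Many growth cone genes read higher on the high gap43 arrays. Of 13 tested genes on the list, gap43 included, 7 were called higher and 0 lower, with a median difference of 1.04 against 0.02 over 5967 genes. The share called higher over all probe sets was 2.35%. The call of gap43 is fixed by the grouping. On the low arrays alone 11 of the 13 pass the filter on low values, 5 of them called, gap43 included. The genes tmsb and marcksa passed through the other arrays, so their calls are no support for the group. The median of 1.04 includes gap43, tmsb and marcksa, so it is no support for the group either. Another 6 genes on the array failed the filter on low values; with no filter 7 of 19 were called and the median was 0.29. The largest difference of any gene named by the rule was that of tmsb, a thymosin beta that binds actin monomers. It read 10.61, 11.15, 11.48 and 11.76 on the high arrays, 6.81, 6.50, 6.40, 5.58 and 6.56 on the low arrays and 9.67, 7.97 and 9.25 on those left out. The difference was 4.88 ± 0.48 (29.5-fold), and the lowest high array lay well above the highest low one. Both MARCKS genes, whose proteins link actin to the membrane, were called: marcksb read 12.53, 12.07, 11.91 and 12.12 on the high arrays and 9.50, 9.50, 10.03, 9.74 and 9.78 on the low arrays, a difference of 2.45 ± 0.24, and marcksa differed by 2.504 ± 0.36. By the labels marcksb rose at day 4 by 2.80 ± 0.75 (SE, 2 pools a group, adjusted p = 0.033), while tmsb and marcksa did not pass (adjusted p = 0.137 and 0.128). The stathmins stmn4 and stmn2a, which destabilise microtubules, differed by 2.05 ± 0.38 and 1.43 ± 0.56, and dpysl5a, a collapsin response mediator of the growth cone, by 1.04. The list did not move as a whole: marcksl1b lay lower without overlap at -0.39, and stmn1b, dpysl3, dpysl5b, alcama and robo2, named because they complete the list, lay between -0.69 and 0.36 with overlapping groups.

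Tubulins, the subunits of microtubules, had 4 of 14 tested members called higher and 0 lower (median 0.91), against 2.35% of all probe sets called higher. The beta tubulin tubb5 had the highest correlation with gap43 of any gene over the 12 arrays (r = 0.98, n = 12, a description). It read 12.21, 12.72, 13.52 and 13.35 on the high arrays, 8.81, 8.73, 9.40, 8.98 and 9.45 on the low arrays and 11.54, 10.64 and 10.45 on those left out, a difference of 3.88 ± 0.47 (14.7-fold). The others called were tuba8l3 (2.52 ± 0.44), tuba1b (1.78 ± 0.41) and tubb2 (1.33 ± 0.34). At day 4 by the labels, tuba1b passed (adjusted p = 0.0458), while tubb5, tuba8l3 and tubb2 did not (adjusted p = 0.0844, 0.0965 and 0.134). Of 16 genes of tubulin and actin folding none was called (median 0.37). The 8 subunits of the cytosolic chaperonin lay at 0.29 to 0.68, and 4 of them, tcp1, cct3, cct4 and cct5, higher without overlap. The other 8, of prefoldin and the tubulin cofactors, lay between -0.10 and 0.72, and 3 of them, pfdn4, vbp1 and tbcb, higher without overlap. Over all probe sets 7.25% lay higher without overlap.

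Of 3 neuronal intermediate filament genes 2 were called higher, prph and inab, against 2.35% of all probe sets. On the low arrays alone 2 of the 3 pass the filter on low values, and 1 of these was called. The gene prph passed through the other arrays, so its call is no support for the group. The peripherin gene prph, whose fish protein plasticin is made by ganglion cells with growing axons, read 9.57, 9.64, 10.52 and 10.12 on the high arrays and 6.47, 6.23, 6.30, 6.27 and 5.80 on the low arrays, a difference of 3.75 ± 0.35 (13.5-fold); on the arrays left out it read 8.34, 6.54 and 7.02. The internexin gene inab differed by 1.78 ± 0.48, while its paralog inaa lay lower without overlap at -0.96. Among genes with other roles in neurons, uchl1, a ubiquitin hydrolase, read 12.60, 11.60, 12.06 and 11.77 on the high and 9.44, 9.57, 9.66, 9.60 and 9.59 on the low arrays, and rose at day 4 by 2.59 ± 0.78 (SE, 2 pools a group, adjusted p = 0.0464). The peptide gene adcyap1b, which encodes PACAP, differed by 2.04 ± 0.25, and did not pass by the labels (adjusted p = 0.110).

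Transcription factors of nerve injury had 6 of 21 tested members called higher and 0 lower (median 0.69). Over all probe sets 2.35% were called higher. The stress factor atf3 read 11.37, 11.94, 11.91 and 11.29 on the high arrays, 7.71, 7.72, 7.63, 8.51 and 7.88 on the low arrays and 9.28, 8.43 and 8.63 on those left out. Its difference was 3.74 ± 0.35 (13.3-fold), with the highest low value on ONX day 12 pool 1. It rose at day 4 by 3.94 ± 1.17 (SE, 2 pools a group, adjusted p = 0.0455). The neuronal factor sox11b read 10.38, 10.79, 10.24 and 10.34 and 7.44, 7.49, 7.83, 7.59 and 7.94 on the high and low arrays, and rose at day 4 by 3.12 ± 0.85 (SE, 2 pools a group, adjusted p = 0.0342). Its paralog sox11a (1.33 ± 0.20), the AP-1 factor jun (1.68 ± 0.29), mycb (1.199 ± 0.21) and klf6a (1.05 ± 0.22) were the other 4 called; of these mycb passed at day 4 (adjusted p = 0.0371) and sox11a, jun and klf6a did not (adjusted p = 0.139, 0.0969 and 0.0997). Without ONX day 4 pool 1, 10 of the 21 were called higher, against 272 of 9301 probe sets.

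The genes most like gap43 over the 12 arrays were chosen by Pearson's r, and the points share arrays and scaling. They were tubb5, sox11b, atf3, prph, rtca, marcksb, adcyap1b, jpt1b, tmsb and sox11a, with r between 0.97 and 0.98 (n = 12). The RNA cyclase gene rtca read 10.46, 10.57, 10.48 and 10.54 on the high and 9.22, 9.28, 9.58, 9.45 and 9.51 on the low arrays, with a difference of 1.105 ± 0.12. The most negative r was that of sst1.1, a somatostatin gene, at -0.95, followed by guca1b, pvalb9, unc119a2 and dtx2 at -0.94 to -0.92.

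**Figure D2:**
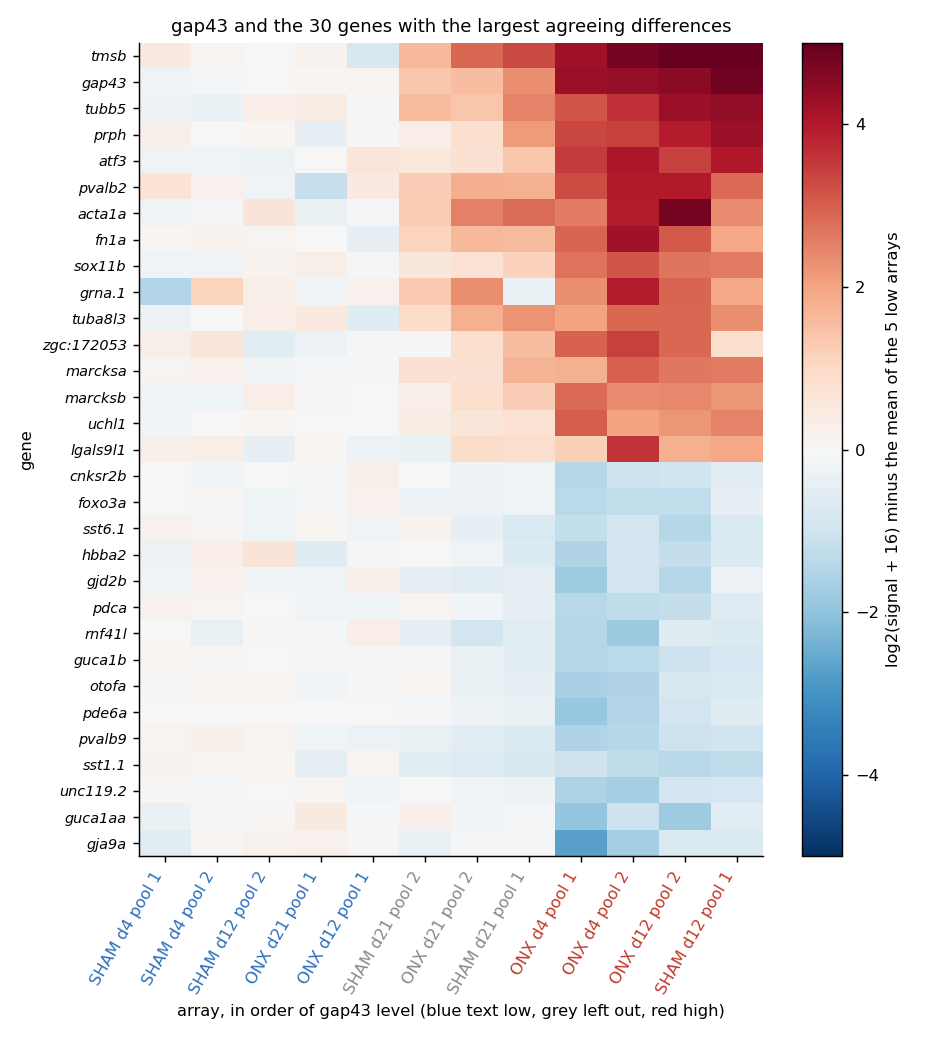
Each row is gap43 or 1 of the 30 genes with the largest difference of the same sign at days 4 and 12; each column is an array in order of its gap43 level, and colour is log2(signal + 16) minus the mean of the 5 low arrays. The 15 higher genes turn red on the 4 high arrays and are mostly paler on the 3 left out, and the 15 lower genes turn blue with smaller differences.

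Microglia and macrophage genes had the largest called share of the cell type lists with more than 10 genes: 19 of 28 were called higher and 0 lower, with a median of 1.32, and 21 without ONX day 4 pool 1. Of all probe sets 2.35% were called higher, and 272 of 9301 without that array. With no filter 20 of 33 were called, and 25 of the 28 pass the filter on the low arrays alone, 17 of them called. All 28 lay above 0 in the day 12 arrays. The acute phase protein gene hp, which binds haemoglobin, differed by 1.88 ± 0.65, and marco, a scavenger receptor of macrophages, by 1.81 ± 0.95. With a low array mean of 7.15, hp passed the filter only through the other arrays, so its call is no support for the group. The cathepsin K gene ctsk differed by 1.81 ± 0.66, and spi1b, a transcription factor of the myeloid line, by 1.65 ± 0.50. The protease ctsc read 9.95 to 11.86 on the high and 8.90 to 9.60 on the low arrays, and rose at day 4 by 1.90 ± 0.55 (SE, 2 pools a group, adjusted p = 0.0423). In the cathepsin gene ctss2.1 the high arrays were far apart, at 13.75, 10.80, 8.88 and 9.17, against 7.88, 8.52, 8.09, 8.36 and 8.03 on the low arrays. At day 4 the whole list had 9 of 28 genes that rose, against 5.29% of all probe sets. The galectin gene lgals9l1, on no list, read 8.96, 11.38, 9.69 and 9.54 on the high and 8.02, 8.08, 7.36, 7.47 and 7.86 on the low arrays. The granulin gene grna.1 separated more narrowly, at 12.28, 13.88, 11.88 and 12.86 against 8.51, 11.08, 10.23, 10.17 and 9.81. The median level of the list was 9.91 to 11.35 on the high arrays and 9.03 to 9.37 on the low ones.

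Of 31 matrix genes, 9 were called higher and 22 were not called (median 0.89), against 2.35% of all probe sets called higher. At any size 11 of the 31 lay higher without overlap, against 7.25% of all probe sets. The tenascin gene tnr and the laminin gene lama5 lay lower without overlap, at -0.94 and -0.64. They are 2 of the 31, while 11.8% of all probe sets lay lower without overlap. On the low arrays alone 28 of the 31 pass the filter, among them all 9 called. The fibronectin gene fn1a read 10.60, 11.88, 9.62 and 10.75 on the high arrays, 7.78, 7.84, 7.82, 7.26 and 7.68 on the low arrays and 9.24, 8.81 and 9.29 on those left out, a difference of 3.03 ± 0.63 (8.19-fold). It rose at day 4 by 3.43 ± 1.00 (SE, 2 pools a group, adjusted p = 0.0417). The collagen genes col1a1a and col1a2 differed by 1.90 ± 0.67 and 2.07 ± 0.74 and did not pass at day 4 (adjusted p = 0.1785 and 0.203). The metalloprotease gene mmp9, on both the matrix and the Mueller glia list, read 10.95, 12.58, 9.09 and 10.71 on the high and 6.80, 7.45, 7.71, 7.90 and 8.16 on the low arrays. Its lowest high value, 9.09, was on SHAM day 12 pool 1. Of the 16 Mueller glia genes, fabp7a, a fatty acid binding protein of radial glia, was the other one called, at 1.95 ± 0.66, and gfap differed by 0.34 with overlapping groups. The Mueller glia list went both ways, with 2 genes higher and 2 lower without overlap and a median of 0.21. Over all probe sets these shares were 7.25% and 11.8%.

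Of 42 division genes on the array, 23 passed the filter on low values and 9 of those were called, and of 10 genes of the replicative helicase 4 passed and 3 were called. In 9 of the 23 and 3 of the 4 the mean of the low arrays alone lay under the filter's level, so that they passed through the other arrays and their count is no support for the group. Among the 14 and 1 that pass on the low arrays alone, 3 and 1 were called. The share called higher was 2.35% over all tested probe sets. With no filter, 16 of 42 and 5 of 10 were called. The replication factor gene pclaf read 10.94, 8.84, 7.34 and 7.82 on the high and 6.58, 6.53, 6.61, 5.28 and 6.54 on the low arrays, and mcm2, a helicase subunit, read 11.06, 9.29, 7.66 and 8.70 and 7.27, 7.02, 6.65, 6.01 and 7.60. The nucleotide reductase gene rrm2l differed by 2.97 ± 1.28 and uhrf1, which maintains DNA methylation, by 2.47 ± 1.17. In pclaf and mcm2, ONX day 4 pool 1, the array with high oocyte genes, read highest and SHAM day 12 pool 1 lowest among the high arrays. Without ONX day 4 pool 1, 9 of 23 and 2 of 4 were called, against 272 of 9301 probe sets called higher. The part of that array's oocyte transcripts in the day 4 values was not tested.

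On the lower side, 5 of 14 rod genes, 2 of 19 cone genes, 4 of 15 genes of inner retinal interneurons and 3 of 16 synapse genes were called, and none were called higher. Without a limit on size, 12, 16, 12 and 12 of them lay lower without overlap, against 11.8% of all probe sets. At the 2-fold limit 1.31% of all probe sets were called lower. The photoreceptor guanylate cyclase activator gene guca1b read 11.0002, 11.08, 11.59 and 11.39 on the high arrays, 12.55, 12.50, 12.45, 12.32 and 12.31 on the low arrays and 11.85, 12.36 and 12.07 on those left out. Its difference was -1.16 ± 0.20 (2.24-fold lower), and it fell at day 4 by 1.48 ± 0.34 (SE, 2 pools a group, adjusted p = 0.0229). The rod phosphodiesterase gene pde6a read 11.11, 11.53, 12.38 and 12.06 on the high and 12.97, 13.00, 13.04, 13.01 and 12.99 on the low arrays, with the smallest gap to the low arrays on SHAM day 12 pool 1. The phosducin gene pdca (-1.13 ± 0.25) and unc119.2 (-1.25 ± 0.28), a lipid-binding carrier of transducin, were also called. The disc rim genes prph2a (-1.16 ± 0.42) and prph2b (-1.05 ± 0.33) and the guanylate cyclase gucy2f (-1.14 ± 0.30) were the other rod genes called. The cone genes called were gnat2, the cone transducin alpha subunit (-1.01 ± 0.33), and guca1c (-1.08 ± 0.41). On the interneuron list, gad2, which makes GABA, differed by -1.21 ± 0.29 and calb2b, a calretinin, by -1.47 ± 0.74. On the synapse list, the AMPA receptor gene gria2a differed by -1.20 ± 0.35. The vesicle fusion gene nsfa differed by -1.01 ± 0.34. Further probe sets of gnat2, pdca and prph2b lay lower but were not called, while those of gucy2f and nsfa were called. The genes gad2, calb2b and gria2a fell at day 4 (adjusted p = 0.0206, 0.0176 and 0.0184). Without ONX day 4 pool 1 the called numbers of the 4 lists were 3, 0, 3 and 0, with medians of -0.69 to -0.61. Of all 9301 probe sets, 42 were called lower without that array. With that array the medians of the 4 lists were -0.90, -0.76, -0.85 and -0.84. Scaled to the hybridisation controls they were -0.57, -0.43, -0.51 and -0.50.

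The lower gene with the closest match to the gap43 order was sst1.1. It read 7.25, 7.03, 7.02 and 6.92 on the high arrays, 8.45, 8.41, 8.40, 8.38 and 7.83 on the low arrays and 7.48, 7.74 and 7.66 on those left out, a difference of -1.24 ± 0.22. The second somatostatin gene named, sst6.1, differed by -1.07 ± 0.25, and neither passed at day 4 (adjusted p = 0.0895 and 0.0718). The neuronal gap junction genes gjd2b and gja9a differed by -1.12 ± 0.45 and -1.46 ± 0.67, and otofa, whose protein acts in vesicle release at hair cell synapses, by -1.17 ± 0.31. Beta globin, hbba2, read 8.07, 8.66, 8.87 and 8.40 on the high and 9.28, 9.91, 10.23, 9.52 and 8.97 on the low arrays, a narrow separation between 8.87 and 8.97. The 2 of 11 red blood cell genes called were hbba2 and ca2, a carbonic anhydrase (-1.04 ± 0.38), against 1.31% of all probe sets called lower. Without ONX day 4 pool 1, 0 of the 11 were called, against 42 of 9301 probe sets called lower. The list's median was -0.81, and -0.47 when scaled to the hybridisation controls.

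Ganglion cell genes lay mostly lower within day 4 and went both ways within day 12. Of the 10 tested, 2 lay above 0 within day 4 and 4 within day 12. In limma 6 of the 10 fell at day 4 and 0 rose, against 11.7% and 5.29% of all probe sets. Over all probe sets 2.35% were called higher and 1.31% lower between high and low arrays. Of 10 tested, elavl4, a neuronal RNA-binding protein, was called higher, at 10.41, 10.68, 11.10 and 10.70 on the high and 9.38, 9.35, 9.52, 9.29 and 9.38 on the low arrays (1.34 ± 0.20). The synuclein gene sncgb was called lower, at 11.18, 11.64, 12.24 and 12.32 on the high and 12.81, 12.95, 12.97, 12.55 and 13.00 on the low arrays (-1.01 ± 0.38). The list's median was -1.097 within day 4 and -0.05 within day 12, and scaled to the hybridisation controls the day 12 median was 0.17. The other 8 genes are given here to complete the list. The difference within day 4 and within day 12 was -1.22 and -0.05 for isl1a, -1.82 and -0.15 for irx4a, and -1.04 and -0.05 for chrnb3a. It was -1.16 and -0.25 for robo2, -0.63 and 0.16 for elavl3, and -1.44 and -0.46 for inaa. It was 1.70 and 0.97 for thy1, a surface glycoprotein of neurons, and -0.15 and 0.40 for alcama.

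Other lists were called in few members. Over all probe sets 2.35% were called higher and 1.31% lower, and at any size 7.25% lay higher and 11.8% lower without overlap. The proteasome had 0 of 38 called, but all 38 lay above 0 within day 4 and within day 12 (median 0.40). Cytosolic ribosomal proteins had 0 of 71 called and a median of 0.18, with 70 of 71 above 0 at day 12. Of 34 nucleolar genes 0 were called, with medians of 0.79 within day 4 and 0.11 within day 12. The lens list had 0 of 9 called but 7 lower without overlap (median -0.60), and the clock list 1 of 20, aanat2, which makes melatonin (-1.12 ± 0.39). The endoplasmic reticulum stress list had 2 of 42 called, hspa5, the main chaperone of that compartment (1.27 ± 0.62), and calr3b, a calreticulin (1.39 ± 0.43). The list of mitochondrial energy supply had 1 of 50 called in each direction, ckba, a cytosolic creatine kinase (1.69), and slc25a3a (-1.02). A second probe set of ckba differed by 1.08 with overlapping groups. The median of the list was -0.22 and turned to 0.11 when scaled to the hybridisation controls. Myelin had 0 of 5 and surface epithelium 1 of 22 called, krt18a.1, at 1.13 ± 0.55. Of 3 oocyte genes that passed the filter on low values 1 was called, ccnb1, which is also on the division list. With a low array mean of 6.53, ccnb1 passed the filter only through the other arrays, so its call is no support for the group.

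Muscle genes split. Of 29 tested, 2 were called higher, acta1a, a skeletal actin, and pvalb2, a parvalbumin of muscle, against 2.35% of all probe sets. On the low arrays alone neither passes the filter on low values. Actin acta1a read 9.02, 10.40, 8.80 and 11.24 on the high and 6.28, 6.39, 7.09, 6.41 and 6.11 on the low arrays, and pvalb2 read 10.30, 10.99, 9.89 and 11.02 and 7.72, 7.25, 6.85, 7.47 and 5.88. The list's median was -0.35 within day 4 and 0.78 within day 12, and scaled to the hybridisation controls that of day 4 was 0.12. Without ONX day 4 pool 1, 11 of 29 were called higher, against 272 of 9301 probe sets. The summed level of the list ranged from 15.22 to 17.05 over the high and from 15.68 to 16.52 over the low arrays; how much muscle a pool held was not tested.

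**Figure D3:**
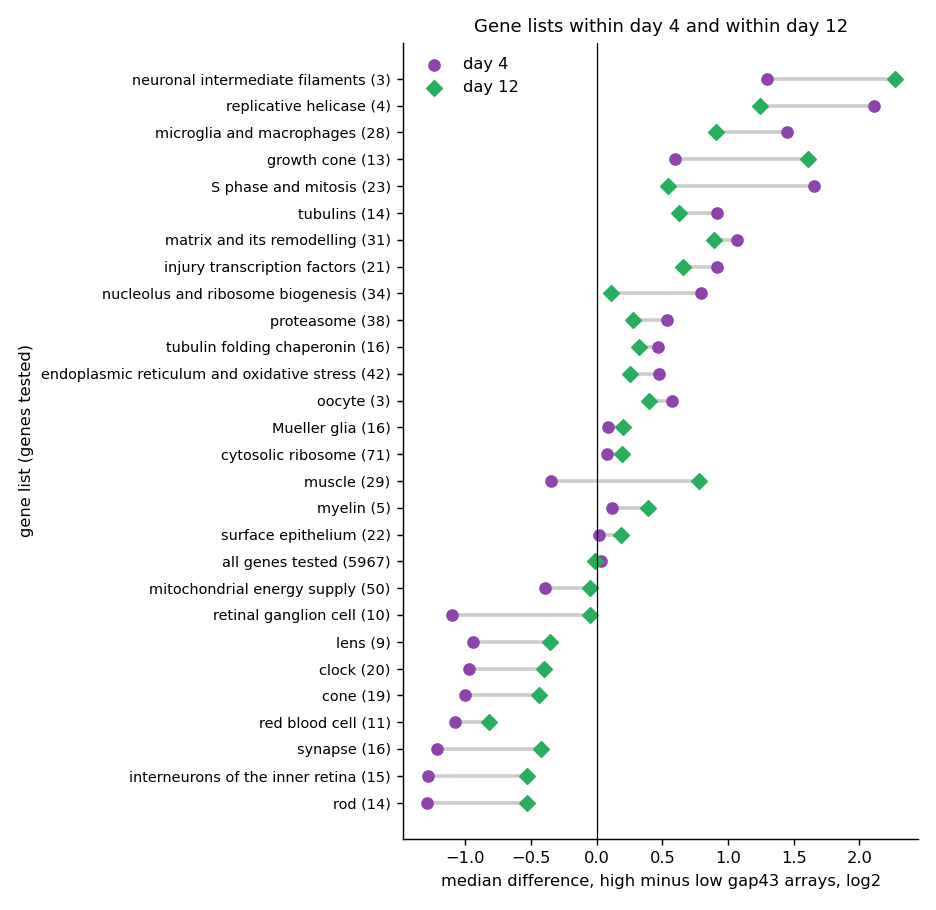
Median difference, high minus low gap43 arrays on the log2 scale, for each gene list within day 4 and within day 12, with the number of tested genes in brackets. Microglia, matrix and growth cone lists lie above 0 and rod, cone, interneuron and synapse lists below 0 at both days, while the muscle list lies at -0.35 and 0.78. The growth cone list includes gap43, by which the arrays were grouped.

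Days 4 and 12 give separate readings, since no array is shared. Within day 4, where gap43 and the labels coincide, 620 probe sets (6.67%) lay at least 2-fold higher without overlap and 863 (9.28%) lower. Within day 12, where each gap43 pair holds 1 SHAM and 1 ONX pool, 197 (2.12%) lay higher and 9 (0.0968%) lower. Of these, 131 were higher at both days, which is 21.1% of the day 4 and 66.5% of the day 12 set, and 8 were lower at both, which is 0.927% and 88.9%. None was 2-fold apart in opposite directions. Of the 620, 569 (91.8%) had a day 12 difference above 0, against 45.1% of all probe sets, with a median of 0.53 against -0.03. Of the 863, the day 12 median was -0.45, and 49 (5.68%) lay above 0. Across all probe sets the differences of both days had r = 0.66, a description, since probe sets are not independent. The day 12 differences were smaller, with an SD over probe sets of 0.42 against 0.74 at day 4.

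Set out by label, the day 12 arrays differed less: the SD over probe sets of ONX minus SHAM was 0.19, and 10 probe sets were 2-fold apart against 220 by gap43. The 492 probe sets that rose at day 4 in limma had a day 12 median of 0.34 by gap43 and 0.13 by label, and the 1090 that fell had -0.36 and -0.13. At day 21 their medians by label were -0.04 and 0.04. The limma fit takes its spread from all 6 groups, and in genes like gap43 the day 12 pools of 1 label lay far apart. Of the 15 named higher genes with a shared difference, 5 passed at day 4 (atf3, fn1a, sox11b, uchl1 and marcksb) and of the 15 lower ones 9, and none passed at day 12 or day 21.

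**Figure D4:**
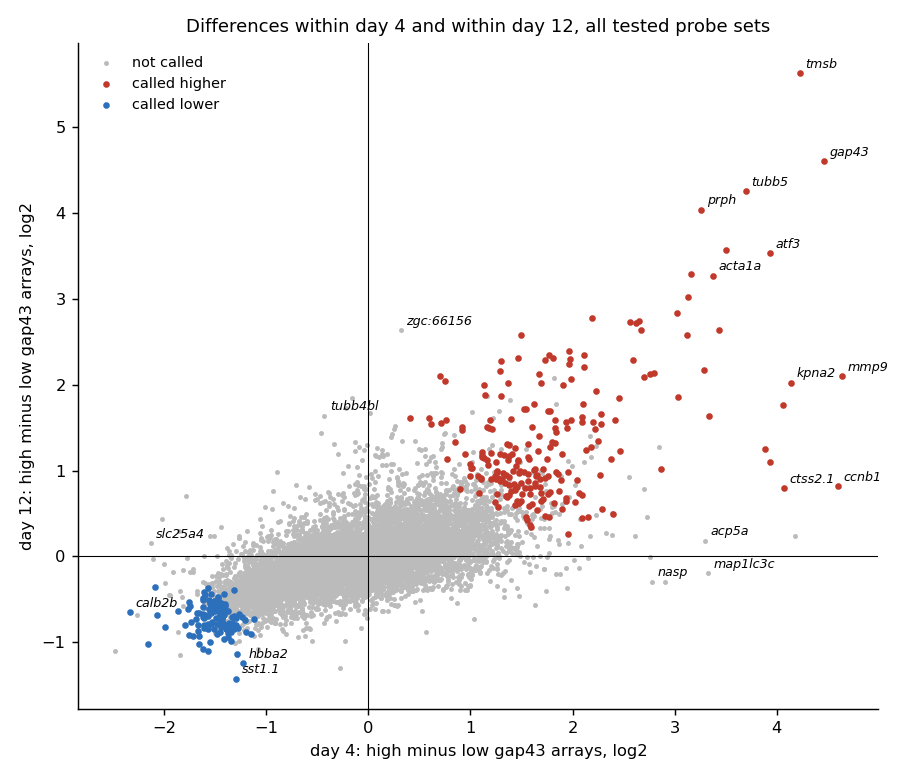
Each point is a tested probe set, with its high minus low gap43 difference (log2) within day 4 on the x axis and within day 12 on the y axis; colours mark called probe sets. Probe sets far from 0 at day 12 lie mostly on the higher side, 197 against 9 at 2-fold, and those past 2-fold at both days lie in the same direction.

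Some genes read differently at days 4 and 12. At day 4, ccnb1, cyclin B1, read 13.76 and 8.59 on the high and 6.58 and 6.58 on the low arrays, and at day 12 6.93 and 7.79 against 6.62 and 6.47. The other 5 genes with the largest excess at day 4, map1lc3c, ctss2.1, acp5a, nasp and cdca7a, also read highest on ONX day 4 pool 1, and map1lc3c and acp5a were near their low level on the other high arrays. In the other direction, tubb4bl, a beta tubulin, read 11.99 and 11.69 on the high and 10.40 and 10.01 on the low arrays of day 12, and 9.44 and 9.55 against 10.04 and 9.81 at day 4. The muscle calcium pump gene atp2a1, the ADP/ATP carrier slc25a4 and nme2b.2, a nucleoside diphosphate kinase, differed by -1.86, -2.13 and -2.02 at day 4 and by 0.29, 0.15 and 0.44 at day 12. These differences between days were not tested.

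The 3 day 21 arrays left out were placed on a scale that runs from 0 at the low mean to 1 at the high mean. For gap43, SHAM pool 1 stood at 0.518, ONX pool 2 at 0.346 and SHAM pool 2 at 0.301. Over the 218 other probe sets called higher, the median positions were 0.479, 0.384 and 0.129, and 187, 186 and 91 of them lay above every low array. Over the 122 called lower the median positions were 0.318, 0.254 and 0.044, with 88, 82 and 33 below every low array. The probe sets chosen on the 9 arrays therefore stood between the groups on SHAM pool 1 and ONX pool 2, and nearer to the low arrays on SHAM pool 2, although its gap43 was at 9.18 and that of ONX pool 2 at 9.38.

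**Figure D5:**
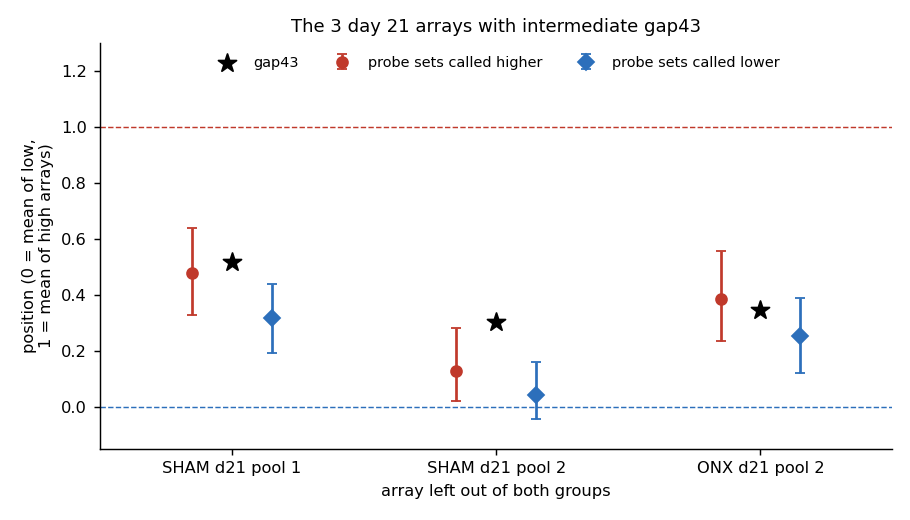
Position of the 3 day 21 arrays left out, on a scale of 0 (mean of the low arrays) to 1 (mean of the high arrays), for gap43 and as the median and quartiles of the probe sets called higher and called lower. SHAM pool 1 has the highest positions and SHAM pool 2 the lowest.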

How the data were processed

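Per the labels, RNA from 12 pools of 5 eyes was hybridised to 1-colour Affymetrix arrays. The authors deposited 1 signal intensity per probe set and array, made with MAS5 per the submitters' processing notes, with no version given; trimmed means were 500.1 on every array, so the values had been scaled. Raw images were not analysed, and the number of arrays limits the precision. Gene symbols came from GEO's platform annotation, which can be old: of 15502 probe sets left after 115 controls, 10795 had 1 symbol, 135 several and 4572 none, and 1 symbol was updated.

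From the intensities, log2(signal + 16) was computed, and the upper 60% of probe sets by mean over all arrays was kept (9301 tested, 6984 with 1 symbol); folds are on that scale and understate changes of dim probe sets. A gene is its probe set with the highest mean. For 19 named genes there were 22 further probe sets, all of the same sign, and 12 of them were called. Those of the called genes ckba, ca2, foxo3a, gnat2, pdca, prph2b and sncgb were not called. Arrays were grouped by gap43 at signals of 2880 and 346, and a probe set was called at a difference of 1 or more without overlap, with no p. Labelled groups were tested with limma 3.58.1 in R 4.3.3 (1 mean per group, trended moderation, 6 residual degrees of freedom, Benjamini-Hochberg at 0.05), and the steps were tested on simulated data.

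Genes were named by a rule: the 15 largest consistent differences in each direction over days 4 and 12, the 10 highest and 5 lowest r with gap43, the 6 that differ most between days in each direction, up to 6 called members of each of 27 lists, and the top oocyte genes. The rule, the lists and the grouping were chosen with earlier results of these data known. Same-numbered pools were not used as pairs: how they were numbered is not given, and deviations of same-numbered pools correlated at 0.12, -0.12 and -0.03 at days 4, 12 and 21. Alternatives were the offset, the filter, the scaling (to quantiles, array medians or control probe sets), the gap43 limits, single days, each array left out, no trend and the pool number as a block. A block with the day 12 pairs crossed, the count of calls kept, list values per scaling and without ONX day 4 pool 1, the lists without the filter and the split of the folding list were added after seeing the data.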

Additional observations from a re-analysis of the deposited data

Results flagged for a closer look

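Among 246 groups of 4 or 5 arrays examined, 12 held an array far from the rest of its group by Dixon's criterion, which chance gives in about 1 of 20 groups. In the high arrays, ONX day 4 pool 1 stood apart for map1lc3c, an autophagy gene, at 12.87 (6.39 to 6.84 on the others), for acp5a, an acid phosphatase, at 13.10 (7.12 to 7.76), for dnd1, a germ cell gene, at 9.94 (6.65 to 7.10), and for sox11a at 9.56 (10.07 to 10.12). SHAM day 12 pool 1 stood apart for foxo3a at 8.98 (8.06 to 8.18). In the low arrays, ONX day 12 pool 1 stood apart for atf3 at 8.51 (7.63 to 7.88), fn1a at 7.26 (7.68 to 7.84), pclaf at 5.28 (6.53 to 6.62) and the median of the lens list at 14.00 (14.10 to 14.14). ONX day 21 pool 1 stood apart for sst1.1 at 7.83 (8.38 to 8.45), SHAM day 4 pool 1 for gja9a at 7.51 (8.09 to 8.24), and SHAM day 12 pool 2 for the median of the matrix list at 8.96 (8.52 to 8.65).

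For 2 of the 95 named genes the high arrays lay on opposite sides of the low arrays at days 4 and 12. They were nasp, a histone chaperone, at 2.78 within day 4 and -0.30 within day 12, and tubb4bl at -0.43 and 1.64. Over all 9301 tested probe sets, 111 lay higher at day 4 and lower at day 12 without overlap, and 120 the other way. These differences between days were not tested. The gap43 signal of the 3 arrays outside the comparison, 10.15 and 9.18 on SHAM day 21 pools 1 and 2 and 9.38 on ONX day 21 pool 2, lay above every low array.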

How the results depend on the processing

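Of the high against low comparison, 341 probe sets were called; the total stayed within 1.5 times of that with an offset of 0 or 64, no filter, the upper 40%, quantile scaling, centring on medians, the poly-A controls, limits of 11 and 9, and without the day 21 array. It was 561 scaled to the hybridisation controls, 84 with arrays split at 10, 1483 with only the day 4 arrays and 206 with only the day 12 arrays, and 274 to 763 with 1 array left out (763 without SHAM day 12 pool 1). For ONX against SHAM at day 4, 1582 were called, against 2429 scaled to the hybridisation controls (1990 higher and 439 lower), 0 scaled to the poly-A controls (2345 at an unadjusted p under 0.05) and 0 to 4008 with 1 array left out. The count was 0 in limma without either SHAM day 4 pool or ONX day 4 pool 1 (2034, 2300 and 2628 at an unadjusted p under 0.05), 4008 without ONX day 4 pool 2, 998 and 996 without SHAM day 21 pools 1 and 2, and 917 without either ONX day 21 pool. With the pool number as a replicate block it was 0 (3180 at an unadjusted p under 0.05), and with the day 12 pairs crossed it was 1677. At days 12 and 21 the count was 0 in every alternative run. Of 2068 alternative values of the 95 named genes, 16 changed sign, in 8 genes that were not called (atp2a1, dnd1, h1-10, map1lc3c, nasp, nme2b.2, slc25a4 and tubb4bl), and 0 in called genes. A second gap43 probe set could not be tried, since the table holds 1. The causes of these changes were not tested, beyond the fewer arrays in each. With 2 pools per group, differences of limited size at single genes could not be resolved.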
